A study of Mus musculus with 7 samples.

Results

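The genes described here are 37 genes of endothelium and of vascular adhesion, chosen by symbol from a list. All 37 were held by every library's file, out of 16019 genes in all. They comprise 15 genes of endothelial junctions and surface, 7 receptors, 8 transcription factors, 3 leukocyte adhesion molecules, 3 genes of secreted proteins and enzymes, and the lymphatic receptor Lyve1. RNA was sequenced from 7 samples of mouse prostate. All 7 came from mice with experimental autoimmune prostatitis (EAP), in which immunisation makes the gland inflamed. The LIT-927 group, 4 samples, had been injected intraperitoneally with 25 mg/kg per day of LIT-927, which neutralises the chemokine CXCL12, the ligand of CXCR4. The vehicle group, 3 samples, had received the solvent methyl-β-cyclodextrin in equal amount, and both groups were treated for 14 days. The solvent group carries the same disease, so neither an uninflamed nor an uninjected prostate enters any comparison. The sources used here give no strain, age or genotype of the mice. Whether the libraries of a group stand for different animals is not stated in the labels, so the p-values below reflect the spread among these samples, and some of that spread may be technical. Replicates keep the numbers of the labels: 1, 3 and 4 for vehicle and 1 to 4 for LIT-927.

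Endothelial cells line blood and lymphatic vessels. They hold together through VE-cadherin (Cdh5), PECAM-1 and claudin-5, and they receive growth and survival signals through VEGF, angiopoietin and sphingosine-1-phosphate receptors. ETS, SOX and KLF transcription factors keep their identity. In inflamed tissue, P-selectin slows passing leukocytes, and ICAM-1 and VCAM-1 bind leukocyte integrins and hold the cells before they cross the vessel wall.

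Sequence upstream of 4 members is shown to let the letters of the control regions be read beside the values. Emcn kept a nearly fixed ratio to other endothelial genes in these libraries and Klf2 did not, while Icam1 and Selp are adhesion genes that inflammation induces. The windows are RefSeq's for GRCm38.p6, plus strand, and were ended before the GENCODE M21 gene start. Capitals mark matches on either strand to AGGAAG (an ETS motif), CCACCC (KLF), AACAAT (SOX) and GGNANTTCC (NF-kB), and no printed match overlapped another.
Emcn, chr3:137340828-137341066: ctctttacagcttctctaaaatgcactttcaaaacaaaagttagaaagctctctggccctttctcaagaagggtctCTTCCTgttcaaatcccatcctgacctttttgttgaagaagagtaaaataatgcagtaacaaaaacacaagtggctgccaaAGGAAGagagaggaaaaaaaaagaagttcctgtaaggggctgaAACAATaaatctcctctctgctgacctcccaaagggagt
Klf2, chr8:72318812-72319032: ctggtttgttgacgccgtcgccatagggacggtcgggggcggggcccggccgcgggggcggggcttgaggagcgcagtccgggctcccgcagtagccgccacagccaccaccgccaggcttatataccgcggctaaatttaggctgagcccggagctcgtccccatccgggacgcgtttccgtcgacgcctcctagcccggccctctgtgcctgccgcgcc
Icam1, chr9:21015690-21015939: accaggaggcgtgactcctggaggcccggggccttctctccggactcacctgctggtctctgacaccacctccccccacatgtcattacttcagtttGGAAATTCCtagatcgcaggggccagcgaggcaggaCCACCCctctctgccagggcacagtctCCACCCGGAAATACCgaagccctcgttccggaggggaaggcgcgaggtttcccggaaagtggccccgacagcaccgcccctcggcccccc
Selp, chr1:164115014-164115263: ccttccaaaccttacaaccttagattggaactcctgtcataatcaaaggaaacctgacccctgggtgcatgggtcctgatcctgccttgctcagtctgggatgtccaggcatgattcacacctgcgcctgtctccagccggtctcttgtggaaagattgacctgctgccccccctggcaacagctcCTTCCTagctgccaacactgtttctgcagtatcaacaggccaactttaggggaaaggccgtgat
The printed Icam1 stretch held 2 NF-kB and 2 KLF matches, that of Emcn 2 ETS and 1 SOX match, and that of Selp 1 ETS match. The printed Klf2 stretch held none of the 4 motifs, but Klf2 did have the KLF letters in the full windows counted next. RefSeq windows were matched for 20 of the 37 members, 26 windows in all, since a gene can have several starts. The counts below are over full windows, which for Emcn and Klf2 reach past the GENCODE M21 gene start and for Icam1 and Selp do not. The ETS letters were present in 11 of these 26 windows and in 29.5% of all 32851 windows. The KLF letters were present in 10 of the 26 and in 28.1% of all windows, and the SOX letters in 3 of the 26 (Emcn, Erg and Tek) and in 9.42%. The NF-kB letters were present in 2 of the 26 (Eng and Icam1) and in 3.92% of all windows. A match is a stretch of letters and does not show that a factor binds there.

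Whole fragments recovered from the deposited values summed to 32045247 to 35259743 per library, so depth was even. The 10 most abundant genes, however, took 22.2% to 72.3% of a library's FPKM (fragments per kilobase of gene, scaled to library size), which lowers the values of all other genes. Libraries differed in make-up within both groups. The prostate gene Pbsn was found in every library, from 129 to 11300 FPKM, as was the prostate transglutaminase gene Tgm4, from 26.0 to 8360 FPKM. Summed transcripts of 8 seminal vesicle secretory genes ran from 51000 to 564000 FPKM. Vehicle 3 and LIT-927 3 stood apart in the uroplakin gene Upk1a, with 172 and 253 FPKM against 2.64 to 10.1 FPKM in the other libraries. The labels name no batch.

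Endothelial transcripts were at a lower mean with LIT-927 for every member, but no member passed the test, and the libraries of each group differed widely. Of the 37 members, 37 had a lower fitted mean with LIT-927, against 44.5% of all genes. The median member difference was -0.71 in log2(FPKM + 1), LIT-927 minus vehicle, with a range from -1.33 (Podxl) to -0.04 (Prox1), and the median over all genes was 0.02. With limma and Benjamini-Hochberg adjustment over 16019 genes, 0 members passed an adjusted p of 0.05 (smallest adjusted p = 0.998), against 0.0% of all genes. At an unadjusted p under 0.05, 3 members were lower and 0 higher in limma, while 2.96% of all genes were lower and 0.718% higher. Voom on recovered fragments, run as an alternative, also called 0 genes. It had 14 members at an unadjusted p under 0.05, where 5.74% of all genes were lower at that p. Every LIT-927 library was below every vehicle library for 4 members (Podxl, Klf2, Icam2 and Icam1), against 2.12% of all genes. That count was 22 without vehicle 4, where 16.8% of all genes did so, and 9 without LIT-927 4, where 4.76% did. In bulk tissue, fewer endothelial cells and less RNA per endothelial cell cannot be told apart.

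The spread within the groups followed the library and not only the treatment. The geometric mean of 6 broadly endothelial members (Cdh5, Pecam1, Tie1, Tek, Esam and Egfl7), used as a reference level, was 12.1, 6.39 and 2.90 FPKM in vehicle 1, 3 and 4. It was 5.58, 3.45, 0.806 and 5.76 FPKM in LIT-927 1 to 4. Vehicle 1 was thus high, LIT-927 3 was low at 0.0665 of its level, and the remaining libraries of the groups overlapped. Group means were 7.14 ± 4.65 FPKM (SD, n = 3) with vehicle and 3.90 ± 2.31 FPKM (SD, n = 4) with LIT-927. Vehicle 1 held the highest value of 36 of the 37 members and LIT-927 3 the lowest of 34, whereas over all genes these shares were 47.0% and 30.7%. Vehicle 4 held the lowest value of 52.8% of all genes but of 0 members. The median member difference moved to -0.33 without vehicle 1 and to -0.41 without LIT-927 3, with 34 and 37 members lower. Without vehicle 3 and LIT-927 3, both high in uroplakin transcripts, it was -0.45 with 37 members lower.

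**Figure D1:**
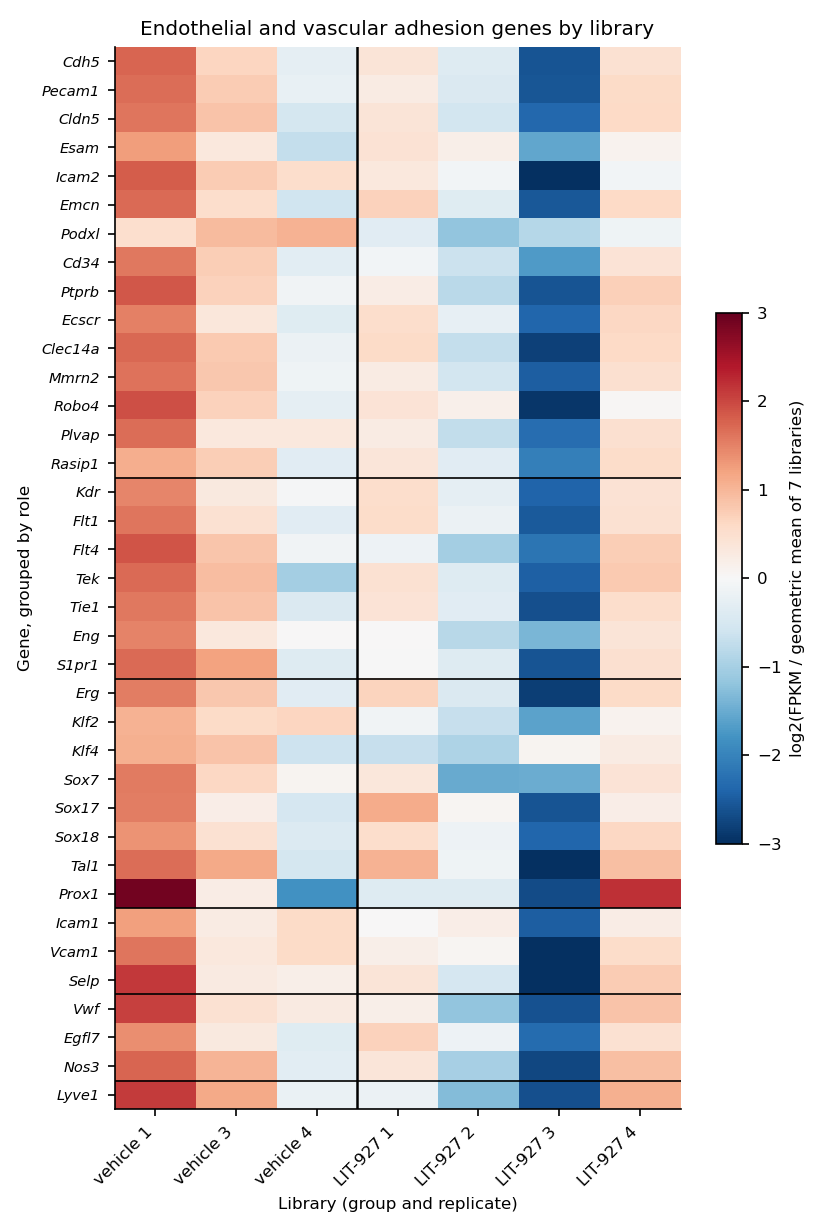
Heat map of the 37 members (rows, grouped by role) in the 7 libraries (columns), as log2 of FPKM over the gene's geometric mean of 7 libraries; red is higher and blue lower. Vehicle 1 is the highest column for 36 members and LIT-927 3 the lowest for 34, and Podxl and Klf4 depart from that order.

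**Figure D2:**
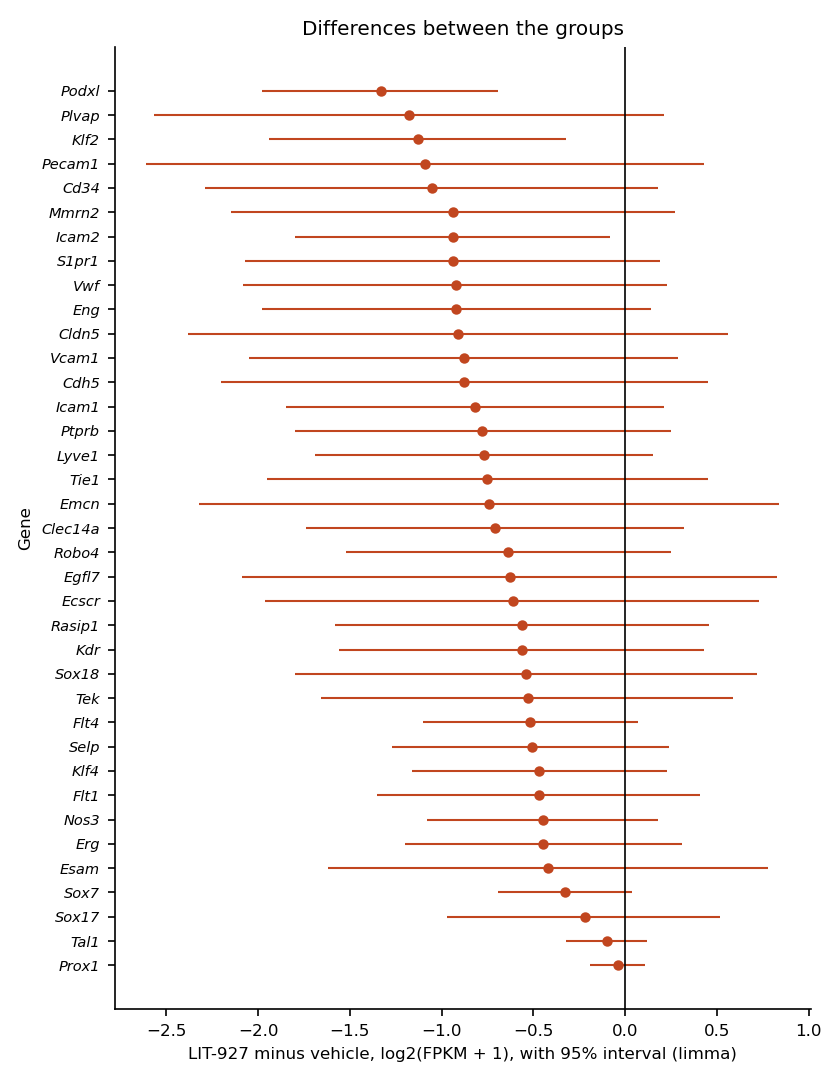
Fitted difference of each member in log2(FPKM + 1), LIT-927 minus vehicle, with its 95% interval from limma (points and bars). All 37 points lie below 0, from -1.33 for Podxl to -0.04 for Prox1, and the intervals of Podxl, Klf2 and Icam2 do not reach 0.

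Junction and surface genes had a median difference of -0.88 in log2(FPKM + 1) over 15 members, 15 of them lower, and Podxl had the smallest p of all members. Podocalyxin, the product of Podxl (chromosome 6, bases 31519488 to 31563981 of mm10), is a sialomucin of the luminal face of vessels that some epithelia also make. Its transcript was at 16.4, 22.0 and 23.6 FPKM in vehicle 1, 3 and 4 and at 9.09, 5.05, 6.38 and 10.5 FPKM in LIT-927 1 to 4. Every LIT-927 library lay below every vehicle library, and vehicle 1, the highest library for the other members, was here the lowest of its group. The means were 20.6 ± 3.77 FPKM (SD, n = 3) with vehicle and 7.75 ± 2.48 FPKM (SD, n = 4) with LIT-927. The difference was -1.33 in log2(FPKM + 1), with a limma 95% interval from -1.98 to -0.69 (limma unadjusted p = 0.00148, adjusted p = 0.998). It ranged from -1.48 to -1.17 when each library was left out in turn.

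Cell contact genes otherwise repeated the order of the libraries. VE-cadherin (Cdh5), which joins neighbouring endothelial cells, was at 11.8, 5.47 and 2.93 FPKM with vehicle and 4.63, 2.71, 0.587 and 4.87 FPKM with LIT-927. PECAM-1 (Pecam1), which sits at the same contacts and takes part in leukocyte passage, was at 27.4, 14.5 and 7.32 FPKM against 10.1, 6.35, 1.44 and 12.8 FPKM. For both, vehicle 4 lay below LIT-927 1 and 4, so the groups overlapped, and the differences of -0.88 ± 0.57 and -1.09 ± 0.66 (limma SE) were less than 2 times their errors. The tight junction gene Cldn5 averaged 7.73 FPKM over the 7 libraries, with a difference of -0.91. Esam, an adhesion molecule of the tight junction, averaged 7.51 FPKM with a difference of -0.42, the smallest of the junction and surface genes.

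Icam2, a constitutive integrin ligand of endothelium (chromosome 11, bases 106377656 to 106388075), was at 4.79, 2.29 and 1.94 FPKM with vehicle and at 1.68, 1.28, 0.141 and 1.28 FPKM with LIT-927. The groups did not overlap, but the gap between LIT-927 1 and vehicle 4 was small, and the lowest value rested on 7 fragments. The difference was -0.94 ± 0.37 in log2(FPKM + 1) (limma SE, unadjusted p = 0.0366 in limma, adjusted p = 0.998). Cd34, a sialomucin of capillaries and of stromal and blood progenitor cells, was at 29.6, 16.5 and 8.02 FPKM against 9.42, 6.39, 3.05 and 13.2 FPKM. Plvap, which forms the diaphragms of fenestrated capillaries, was at 32.0, 12.4 and 12.4 FPKM against 11.8, 6.03, 2.06 and 13.9 FPKM. Only LIT-927 4 reached above the lowest vehicle library for Plvap, while LIT-927 1 and 4 did so for Cd34. Their differences were -1.18 ± 0.60 and -1.05 ± 0.53 (limma SE) for Plvap and Cd34.

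Ptprb, the vascular phosphatase that acts on TIE2 and VE-cadherin, was at 5.11, 2.28 and 1.31 FPKM with vehicle and 1.65, 0.798, 0.233 and 2.29 FPKM with LIT-927. Mmrn2, a matrix glycoprotein that binds CLEC14A, was at 9.70, 5.48 and 2.85 FPKM against 3.75, 2.15, 0.562 and 4.40 FPKM. The groups overlapped for both: LIT-927 1 and 4 lay above vehicle 4 for each gene, and LIT-927 4 lay just above vehicle 3 as well for Ptprb. The remaining surface genes had the differences -0.74 (Emcn, a sialomucin of capillaries and veins, mean 7.62 FPKM), -0.71 (Clec14a, mean 1.97 FPKM), -0.64 (Robo4, a roundabout receptor that stabilises vessels, mean 1.40 FPKM), -0.61 (Ecscr, an endothelial surface regulator, mean 5.07 FPKM) and -0.56 (Rasip1, a RAS-interacting protein needed for vessel lumens, mean 2.91 FPKM). None of these groups was separate.

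Receptors for growth factors and lipids had a median difference of -0.56 over 7 members, 7 of them lower and 0 at an unadjusted p under 0.05. VEGF receptor 2 (Kdr), the main signalling receptor for VEGF-A, was at 4.94, 2.19 and 1.76 FPKM with vehicle and at 2.58, 1.50, 0.338 and 2.42 FPKM with LIT-927. VEGF receptor 1 (Flt1), which binds VEGF-A tightly and signals weakly, was at 3.42, 1.54 and 0.889 FPKM against 1.66, 0.993, 0.197 and 1.54 FPKM. The groups overlapped for both, since LIT-927 1 and 4 lay at or above vehicle 3 and 4. The differences were -0.56 ± 0.43 for Kdr and -0.47 ± 0.38 for Flt1 (limma SE). Angiopoietin signals are received by TIE2 (Tek), which was at 4.53, 2.67 and 0.693 FPKM against 1.91, 1.06, 0.254 and 2.39 FPKM, a difference of -0.53. Here vehicle 4 lay below LIT-927 1, 2 and 4. Its partner receptor TIE1 (Tie1) averaged 3.16 FPKM, with a difference of -0.75.

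Endoglin (Eng), a co-receptor for BMP9 and TGF-beta, was at 19.5, 8.66 and 7.02 FPKM with vehicle and 6.98, 3.89, 2.70 and 9.04 FPKM with LIT-927. The sphingosine-1-phosphate receptor gene S1pr1, which tightens endothelial junctions and also guides lymphocytes, was at 6.71, 4.71 and 1.56 FPKM against 2.05, 1.57, 0.339 and 2.84 FPKM. LIT-927 4 alone reached into the vehicle range for Eng, and LIT-927 1, 2 and 4 did so for S1pr1. The differences were -0.92 ± 0.46 and -0.94 ± 0.49 (limma SE), with 95% intervals up to 0.14 and 0.19.

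Transcription factor genes had a median difference of -0.39 over 8 members, 8 of them lower, and most were near or below 1 FPKM, where log2(FPKM + 1) understates a change. Klf2, which laminar flow induces and which restrains inflammatory activation of endothelium (chromosome 8, bases 72319033 to 72321656), had the highest mean level of the 8, with Sox18 next. It was at 13.1, 9.38 and 9.92 FPKM in vehicle 1, 3 and 4 and at 5.88, 3.93, 2.09 and 6.78 FPKM in LIT-927 1 to 4. Every LIT-927 library lay below every vehicle library. The means were 10.8 ± 2.02 FPKM (SD, n = 3) and 4.67 ± 2.09 FPKM (SD, n = 4), and the difference was -1.13 in log2(FPKM + 1). The limma 95% interval ran from -1.94 to -0.32 (limma unadjusted p = 0.0125, adjusted p = 0.998), and leaving out each library in turn gave -1.31 to -0.87. Podxl and Klf2 were the members at an unadjusted p under 0.05 under each of 16 other settings, in limma or, for each gene's own variance, an ordinary t test. The settings reuse the same libraries, and how many of all genes stayed under that p in each setting is not given. T cells and macrophages also make Klf2, and leukocyte genes had lower means alongside it, as given further on; their part in the Klf2 difference was not tested.

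Klf4, a related factor that epithelia also make, was at 2.83, 2.44 and 0.870 FPKM with vehicle and 0.831, 0.709, 1.43 and 1.59 FPKM with LIT-927. Unlike nearly all members, it was not lowest in LIT-927 3, which lay second highest of its group. Erg, an ETS factor that maintains endothelial identity, was at 2.30, 1.38 and 0.622 FPKM against 1.26, 0.579, 0.111 and 1.18 FPKM. Sox17, a factor of arterial endothelium, was at 1.97, 0.789 and 0.482 FPKM against 1.49, 0.713, 0.113 and 0.780 FPKM. The groups overlapped for all 3 genes, and their differences were -0.47, -0.45 and -0.22 in log2(FPKM + 1). The Sox17 difference was 0.07 without vehicle 1. The related genes Sox18 and Sox7 averaged 4.14 and 0.406 FPKM, with differences of -0.54 and -0.33. Tal1, a factor of blood and endothelial precursors, averaged 0.164 FPKM with a difference of -0.10, and its lowest library held 1 fragment.

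Leukocyte adhesion molecules had a median difference of -0.82 over 3 members, 3 of them lower. ICAM-1 (Icam1; chromosome 9, bases 21015985 to 21028817), the inducible ligand of leukocyte beta-2 integrins, whose upstream window with NF-kB letters is printed above, was at 7.26, 3.70 and 4.61 FPKM with vehicle. With LIT-927 it was at 3.14, 3.54, 0.556 and 3.63 FPKM. The groups did not overlap, but LIT-927 4 and vehicle 3 were nearly level, and the difference of -0.82 had a limma 95% interval from -1.85 to 0.21 (limma unadjusted p = 0.103, adjusted p = 0.998). VCAM-1 (Vcam1), which binds the integrin of lymphocytes and monocytes encoded by Itga4 and Itgb1, was at 7.74, 3.18 and 3.78 FPKM against 2.89, 2.65, 0.266 and 3.71 FPKM. P-selectin (Selp), which endothelium and platelets store and show on activation, was at 2.56, 0.704 and 0.659 FPKM against 0.766, 0.410, 0.0634 and 0.984 FPKM. LIT-927 4 reached into the vehicle range for Vcam1, and LIT-927 1 and 4 did so for Selp. The differences were -0.88 ± 0.50 and -0.51 ± 0.32 (limma SE). The lowest Selp value rested on 7 fragments.

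**Figure D3:**
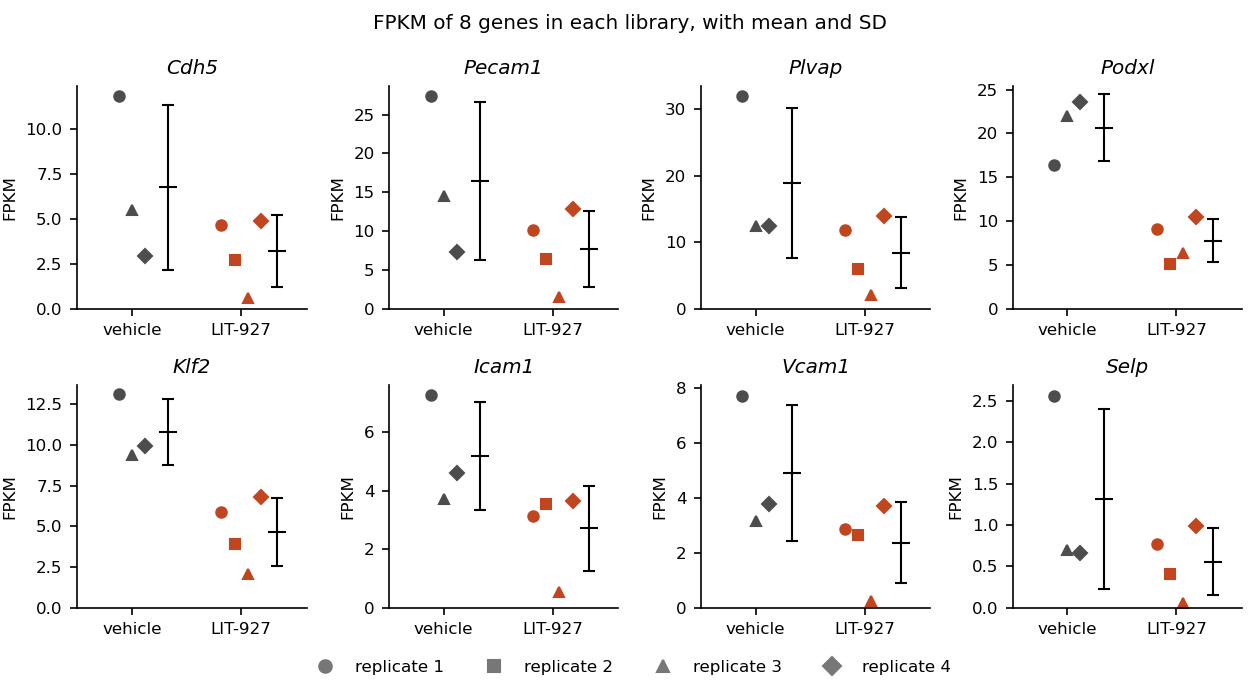
FPKM of 8 members in each library (points; marker shape gives the replicate number), with the mean and SD of each group beside them, vehicle n = 3 and LIT-927 n = 4. The groups are separate for Podxl, Klf2 and Icam1 and overlap for Cdh5, Pecam1, Plvap, Vcam1 and Selp, with vehicle 1 highest in all but Podxl.

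Secreted proteins and enzymes had a median difference of -0.63 over 3 members, 3 of them lower. Von Willebrand factor (Vwf), the platelet-binding glycoprotein that endothelium stores together with P-selectin, was at 6.90, 2.28 and 2.01 FPKM with vehicle and at 1.89, 0.737, 0.275 and 3.02 FPKM with LIT-927. Nos3, the endothelial nitric oxide synthase gene, was at 1.67, 1.02 and 0.403 FPKM against 0.641, 0.251, 0.0750 and 0.933 FPKM. The groups overlapped for both genes, through LIT-927 4 for Vwf and through vehicle 4 for Nos3. Their differences were -0.92 ± 0.50 and -0.45 ± 0.27 (limma SE). Egfl7, a secreted protein of endothelial matrix, averaged 9.33 FPKM with a difference of -0.63.

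Members known from lymphatic endothelium were low in all libraries. Lyve1, a hyaluronan receptor of lymphatic endothelium and some macrophages, was at 3.46, 1.77 and 0.706 FPKM with vehicle and at 0.716, 0.329, 0.131 and 1.69 FPKM with LIT-927. VEGF receptor 3 (Flt4), which binds VEGF-C, was at 1.81, 0.870 and 0.456 FPKM against 0.440, 0.241, 0.107 and 0.820 FPKM. For both genes LIT-927 4 lay within the vehicle range, as LIT-927 1 did for Lyve1, and the differences were -0.77 ± 0.40 and -0.52 ± 0.25 (limma SE). Prox1, the transcription factor that sets lymphatic identity, was at 0.173, 0.0275 and 0.00660 FPKM against 0.0178, 0.0178, 0.00363 and 0.107 FPKM. These Prox1 values rested on 1 to 50 fragments, and the groups overlapped. Of 10 further lymphatic genes, 10 had a lower mean with LIT-927 and 0 passed the test. Among them the chemokine gene Ccl21a, which guides dendritic cells into lymphatics, was at 33.5 ± 21.3 FPKM (SD, n = 3) with vehicle and 10.0 ± 8.91 FPKM (SD, n = 4) with LIT-927. Its difference was -1.76 in log2(FPKM + 1) (limma unadjusted p = 0.0272, adjusted p = 0.998).

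To see which members departed from the general endothelial level, each gene was taken relative to the 6 reference genes of the same library. The other 31 members then lay around 0, with 15 lower and 16 higher with LIT-927 and a median of 0.01 in log2(FPKM + 1), against a median of 0.74 over all genes. Because log2(FPKM + 1) understates a fall of a low gene, low genes can come out higher here while their FPKM ratio fell. Nos3, for example, was at 0.27 here while its mean ratio was 0.145 with vehicle and 0.111 with LIT-927. Selp was at 0.20 here and at -0.22 with a pseudocount of 0.1. The counts of lower and higher members thus depend on this scale. In limma, 0 of the 31 passed an adjusted p of 0.05 (smallest adjusted p = 0.419), against 0.00624% of all genes, which is the gene Fgfbp1. At an unadjusted p under 0.05 there were 0 of the 31 and 1267 of all genes. The limma errors of these relative differences were near 0.52 for most members, with a variance estimate shared across all genes. With each gene's own variance, in an ordinary t test, the errors ran from 0.07 to 0.67. Of the 31, 0 then passed an adjusted p of 0.05, and 2 had an unadjusted p under 0.05. These were Sox18, at 0.18 ± 0.07 (own-variance SE, t test unadjusted p = 0.0449), and Mmrn2, at -0.22 ± 0.09 (own-variance SE, t test unadjusted p = 0.0493). The t test adjusted p was 0.448 for both. The share of all genes at that unadjusted p is not given for this fit, so the 2 are not read as a result about these members.

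As a ratio to the reference level in FPKM, some members were nearly constant while their levels were not. The ratio of Flt1 was 0.282, 0.241 and 0.306 in vehicle 1, 3 and 4 and 0.298, 0.288, 0.244 and 0.267 in LIT-927 1 to 4, although its FPKM differed 17.4-fold between the highest and the lowest library. The SD of the log2 ratio over the 7 libraries was 0.14 for Flt1, 0.15 for Sox18, and 0.16 for Emcn, Cldn5 and Ecscr. It was under 0.5, a looser limit, for 18 of the 31 members. The share of all genes under that limit is not given. Whether genes of other cell types kept as steady a ratio was not tested. These genes are a surface receptor, a transcription factor, a sialomucin and junction proteins, so the members with the steadiest ratios came from several roles.

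Every LIT-927 ratio lay below every vehicle ratio for 3 of the 31, Clec14a, Mmrn2 and S1pr1, against 0.599% of all genes, and above for 0, against 12.2% of all genes. For Mmrn2 the ratio was 0.801, 0.857 and 0.982 with vehicle and 0.672, 0.625, 0.697 and 0.764 with LIT-927. For S1pr1 it was 0.554, 0.737 and 0.538 against 0.368, 0.454, 0.421 and 0.493. Mmrn2 and S1pr1 were lower in each LIT-927 library, by less than the level itself varied between libraries. For Clec14a the gap was slight, at 0.382 in LIT-927 1 against 0.384 in vehicle 3, and its fitted relative difference was 0.01. These separations depend on the reference: over Cdh5 alone, the FPKM ratios of all 3 genes overlapped between the groups. Among the reference genes, which enter their own reference, Cdh5 and Pecam1 also did not overlap, at 0.945 ± 0.0798 against 0.798 ± 0.0528 and at 2.35 ± 0.147 against 1.92 ± 0.205 (SD, n = 3 and n = 4). Tie1 had a lower mean ratio with LIT-927 too, while Esam, Egfl7 and Tek had higher ones. Esam was at 1.29 ± 0.0461 against 1.90 ± 0.662 (SD, n = 3 and n = 4), which raises the reference and lowers the ratios of other genes.

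The leukocyte adhesion genes kept no separation on this scale. The ratio of Icam1 was 0.599, 0.579 and 1.59 with vehicle and 0.562, 1.03, 0.690 and 0.630 with LIT-927, and that of Vcam1 was 0.639, 0.498 and 1.30 against 0.519, 0.768, 0.330 and 0.643. Vehicle 4 was highest for both. For Selp the ratio was 0.183 ± 0.0635 (SD, n = 3) with vehicle and 0.126 ± 0.0385 (SD, n = 4) with LIT-927, and the groups overlapped. The relative difference of Icam1 was -0.10 ± 0.53 in log2(FPKM + 1) (limma SE) and was 0.27 without vehicle 4.

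Podxl, Klf2 and Klf4 followed the reference genes least among members above 1 FPKM. The ratio of Podxl was 1.35, 3.43 and 8.11 in vehicle 1, 3 and 4 and 1.63, 1.46, 7.92 and 1.82 in LIT-927 1 to 4. That of Klf2 was 1.08, 1.47 and 3.42 against 1.05, 1.14, 2.60 and 1.18. Both ratios were high in vehicle 4 and LIT-927 3, the 2 libraries with the lowest reference level, so the separation seen in FPKM was absent here. The ratio of Klf4 was 1.77 in LIT-927 3 and 0.149 to 0.382 in the other 6 libraries. LIT-927 3 was also the library with 253 FPKM of Upk1a, and the part of urothelium or other epithelium in these values was not tested.

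**Figure D4:**
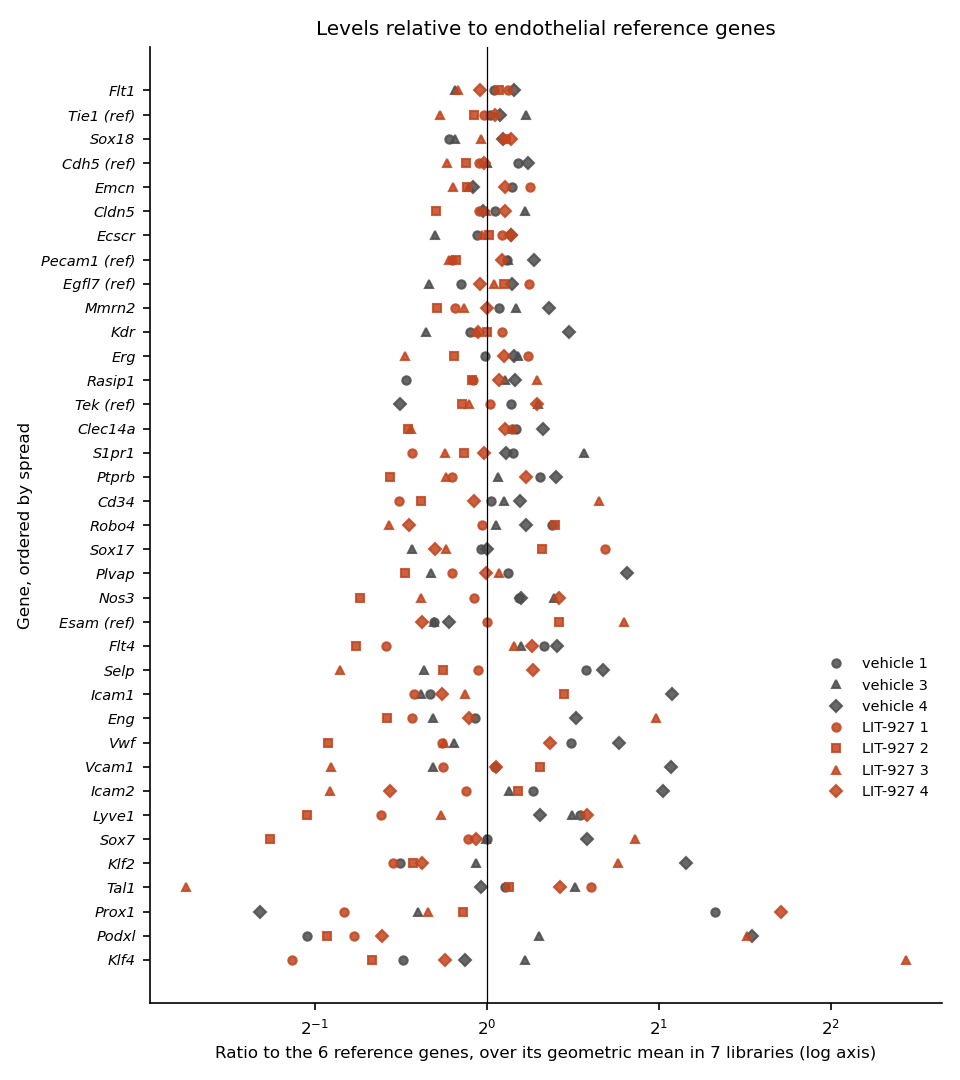
Ratio of each member to the geometric mean of the 6 reference genes, divided by the ratio's own geometric mean over 7 libraries (log axis); genes are ordered by spread, and each marker is a library. Genes at the top, such as Flt1 and Sox18, stay close to 1 in all libraries, while Podxl, Prox1 and Klf4 at the bottom spread widely.

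Ligands and further receptors of the vascular pathways gave a mixed picture. Of 24 vascular ligand genes, 18 had a lower mean and 6 a higher, with a median difference of -0.20, and 0 passed the test. Vegfa, the main endothelial growth factor and largely made by epithelium, was level, at 6.60 ± 0.884 FPKM (SD, n = 3) with vehicle and 7.03 ± 0.638 FPKM (SD, n = 4) with LIT-927. Its difference of 0.08 had a limma 95% interval from -0.37 to 0.54 and was -0.02 without vehicle 4 and -0.01 with upper-quartile scaling. Vegfc, the lymphatic growth factor, differed by -0.49 ± 0.44 (limma SE). Angpt1, which activates TIE2, differed by -0.12 ± 0.48, and Angpt2, which can oppose it, by -0.17 ± 0.51 (limma SE). Both angiopoietin differences changed sign when single libraries were left out. The ligand genes with the smallest p among those above 1 FPKM were Vegfd at -0.66, Slit3 at -1.09, Adm at -0.55 and Angptl4 at -0.50, and none reached an unadjusted p of 0.05 in limma. The apelin gene Apln, low in level, was the ligand gene with every LIT-927 library below every vehicle library, against 2.12% of all genes.

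Of 24 vascular receptor and signalling genes, 22 had a lower mean and 2 a higher, with a median difference of -0.44 and 0 past the test. Ephb4, the venous receptor for ephrin-B2, was at 12.7, 14.3 and 10.9 FPKM with vehicle and at 6.94, 5.64, 4.88 and 8.87 FPKM with LIT-927. The groups did not overlap, and the difference was -0.87 ± 0.24 in log2(FPKM + 1) (limma SE, unadjusted p = 0.00721 in limma, adjusted p = 0.998). Unlike the member receptors, Ephb4 varied little between the libraries of a group. Ramp2, the partner of the adrenomedullin receptor, differed by -1.21 ± 0.62, Ackr3, an atypical receptor for CXCL12, by -1.10 ± 0.62, and Stab1, a scavenger receptor, by -0.70 ± 0.31 (limma SE).

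Of 38 further endothelial genes, 34 had a lower mean and 4 a higher, the median difference was -0.44, and 0 passed the test. Every LIT-927 library was below every vehicle library for Gpihbp1, Ly6c1 and Tcf15, against 2.12% of all genes. Gpihbp1, which carries lipoprotein lipase to the capillary wall, was at 5.85 ± 1.45 FPKM (SD, n = 3) with vehicle and 2.35 ± 1.33 FPKM (SD, n = 4) with LIT-927, a difference of -1.11 (limma unadjusted p = 0.0221, adjusted p = 0.998). Ly6c1, which capillary endothelium shares with some leukocytes, differed by -1.30 (limma unadjusted p = 0.0315, adjusted p = 0.998). Gata2, a factor of endothelium that prostate epithelium also makes, was at 91.2 ± 14.2 FPKM against 53.7 ± 20.3 FPKM (SD, n = 3 and n = 4), and its groups overlapped.

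Leukocyte genes whose products bind the adhesion members mostly had lower means beside them. Of 15 such genes, 13 had a lower mean with LIT-927, 6 were at an unadjusted p under 0.05 in limma, and 0 passed after adjustment. At that unadjusted p, 2.96% of all genes were lower and 0.718% higher. Cd44, a hyaluronan and selectin ligand also made by basal epithelium, was at 2.81, 4.61 and 1.44 FPKM with vehicle and 0.804, 0.831, 0.260 and 1.38 FPKM with LIT-927. The groups did not overlap, though LIT-927 4 and vehicle 4 were nearly level. The P-selectin ligand gene Selplg differed by -0.88 ± 0.29 (limma SE, unadjusted p = 0.0183 in limma, adjusted p = 0.998), and the beta-2 integrin gene Itgb2, whose product binds ICAM-1, by -1.02 ± 0.37 (limma SE, unadjusted p = 0.0255 in limma, adjusted p = 0.998). Itgb1, broadly expressed, differed by -0.38 ± 0.50 (limma SE).

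Of 15 other genes of inducible adhesion and leukocyte traffic, 11 had a lower mean and 4 a higher, with a median difference of -0.13. E-selectin (Sele), which cytokines induce on endothelium, was at 0.138, 0.146 and 0.105 FPKM with vehicle and 0.00948, 0.0664, 0.0290 and 0.0444 FPKM with LIT-927. The groups did not overlap, on 12 to 16 fragments against 1 to 7 fragments per library. Its difference of -0.12 is small on the log2(FPKM + 1) scale because the values are far below 1 (limma unadjusted p = 0.0133, adjusted p = 0.998). Cxcl12, the chemokine that LIT-927 binds, was at 13.4 ± 7.14 FPKM (SD, n = 3) against 8.74 ± 4.25 FPKM (SD, n = 4), with LIT-927 3 lowest at 2.44 FPKM. F11r, a junction molecule of epithelium and endothelium, had a higher mean with LIT-927, at 82.3 ± 17.3 FPKM against 55.9 ± 15.1 FPKM (SD, n = 4 and n = 3), and its groups overlapped.

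Summed markers of smooth muscle and fibroblasts moved with the endothelial genes between libraries. The mural cell sum did so largely through Des, and sums of epithelial markers did not all do so. Summed FPKM of 10 smooth muscle genes was 10500, 3940 and 2960 in vehicle 1, 3 and 4 and 4680, 2970, 883 and 6000 in LIT-927 1 to 4, with 10 of 10 lower in mean. Mural cell genes, 11 of 13 lower, summed to 249 to 955 FPKM with vehicle and 151 to 517 FPKM with LIT-927, but Des gave 86.5% of it. Des was at 873 of 955 FPKM in vehicle 1 and at 68.8 of 151 FPKM in LIT-927 3. The order of this sum is thus mostly that of Des and does not stand for the other mural genes. Fibroblast genes, 10 of 10 lower, summed to 94.2 to 516 FPKM against 73.5 to 247 FPKM. All 3 sums were highest in vehicle 1 and lowest in LIT-927 3, as were the endothelial reference genes, and their part in the endothelial differences was not tested. Pbsn, from prostate epithelium, was also highest in vehicle 1, at 11300 FPKM, and second highest in LIT-927 4, at 8960 FPKM. Svs4, a seminal vesicle gene, was at 2750 FPKM in vehicle 1, 176000 in vehicle 4 and 98600 in LIT-927 3. Basal epithelium genes, 8 of 8 lower, summed highest in vehicle 3, at 115 FPKM, and lowest in LIT-927 3, at 30.8 FPKM. Urothelium genes, 6 of 7 lower, summed to 438 FPKM in vehicle 3 and 366 FPKM in LIT-927 3, above every other library. The fibroblast gene Dcn was lowest in vehicle 4, at 37.6 FPKM, with 44.1 FPKM in LIT-927 3.

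Leukocyte markers were lower in 10 of 12 genes. Of the 12, 8 were at an unadjusted p under 0.05 in limma and 0 passed after adjustment. Over all genes, 2.96% were lower and 0.718% higher at that unadjusted p. Their summed level ran from 1400 to 3450 FPKM with vehicle and from 1400 to 2880 FPKM with LIT-927, but Cd52, which male tract epithelium also makes, gave 92.4% of it. CD45 (Ptprc), made by all leukocytes, was at 3.23, 1.32 and 2.63 FPKM with vehicle and at 0.657, 1.04, 0.456 and 1.11 FPKM with LIT-927. The groups did not overlap, and vehicle 3, not vehicle 4, was the lowest of its group, so Ptprc did not follow the order of the endothelial reference genes. Platelet genes, 5 of 7 lower and 0 at an unadjusted p under 0.05, summed to 4.46 to 15.1 FPKM with vehicle and 2.04 to 8.42 FPKM with LIT-927. None of the genes measured in these lists was at 0 in every library.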

How the data were processed

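Total RNA of mouse prostate was extracted with TRIzol, per the labels' protocols. Per the submitters' processing notes, fastp, HISAT2 and HTSeq were used with the build mm10. Versions, annotation and strand setting: not given in the sources used here. FPKM values were deposited by the authors; this unit is not named by the file headers (which read expression) and was inferred from the values. Whole fragments were recovered from the FPKM steps for 16018 of 16019 genes, within 0.01 fragments, and served for depth and 1 alternative. Coordinates come from GENCODE M21, whose build equals mm10.

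All 7 libraries were fitted on the log2(FPKM + 1) scale in limma 3.58.1 (R 4.3.3), with a trended prior variance and group as the sole term, and no gene was filtered out. A Benjamini-Hochberg adjusted p (two-sided) under 0.05 counted as a call. Differences are LIT-927 minus vehicle and understate changes of low genes. A second fit subtracted from each gene the mean log2(FPKM + 1) of 6 reference genes of the same library. A filter of 1 FPKM in 3 libraries, used only as an alternative, kept 30 members and 11151 genes. The code was tested on simulated data.

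The members and all lists were chosen with earlier results of these data known, so lists are described by counts and medians, with no test of a list. Library values are given for members of at least 1 FPKM with the 12 smallest p and for 20 members standing for a role; of other lists up to 4 genes with the smallest p above 1 FPKM are named, and Sele, Vegfa, Vegfc, Angpt1, Angpt2, Cxcl12, Ptprc, Dcn, Upk1a and Svs4 always. Genes named only to identify a small count, and the prostate markers, were chosen after values were seen. Alternatives were a pseudocount of 0.1, the filter, upper-quartile or median-of-ratios scaling, voom with trimmed-mean factors, quality weights, a replicate block, Cdh5 as the reference, and leaving out libraries. Each gene's own variance was added after seeing the data. Figures were drawn with Python 3.11.15 and matplotlib 3.10.9. Some items are not reported here.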

Additional observations from a re-analysis of the deposited data

Results flagged for a closer look

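Values of the 4 LIT-927 libraries were examined in 91 groups. In 8 of them the highest or the lowest library lay far from the nearest of the others relative to the range of the group. The cut used is passed by about 1 in 20 groups of independent, normally distributed values. The 91 groups share the same 4 libraries and FPKM values can be skewed, so the 8 cannot be judged against that rate. Among the members, Prox1 had a high library, LIT-927 4, at 0.107 FPKM, and Icam1 a low library, LIT-927 3, at 0.556 FPKM. As ratios to the endothelial reference genes, Podxl and Klf2 had a high library, LIT-927 3, at 7.92 and 2.60.

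Outside the members, LIT-927 3 was the low library for Cxcl12, at 2.44 FPKM. It was the high library for Angpt2, at 3.23 FPKM, for Upk1a, at 253 FPKM, and for Svs4, at 98600 FPKM.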

How the results depend on the processing

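Members were lower with LIT-927 in 580 of 585 member values over 16 other settings, and the median member difference stayed between -1.17 (voom) and -0.33 (without vehicle replicate 1). The 4 member values with the opposite sign were Sox17 with quality weights (0.12) and, without vehicle replicate 1, Esam (0.01), Sox17 (0.07) and Prox1 (0.03), and Prox1 with quality weights rounded to 0, so their leave-one-out ranges were -0.43 to 0.07 for Sox17, -0.86 to 0.01 for Esam and -0.08 to 0.03 for Prox1. The count of 3 members at an unadjusted p under 0.05 became 13 with median-of-ratios scaling, 11 with upper-quartile scaling, 14 with voom and 8 with quality weights. In these 4 settings 5.51%, 5.71%, 5.74% and 15.1% of all genes were lower at that p, against 2.96% in the main fit. Quality weights gave 2424 lower and 1939 higher genes, so the members' count there is no trait of the members. Leaving out single libraries gave 2 to 11 members. There were 11 without vehicle replicate 4, where 8.02% of all genes were lower at that p, and 8 without LIT-927 replicate 4, where 3.37% were. The 4 members with separate groups became 10 with either scaling, where 5.0% and 5.34% of all genes had separate groups, and 4 to 22 when single libraries were left out. Quality weights, fitted gene by gene because the default fit did not converge, called 466 genes, 1 member (Podxl) and, relative to the reference genes, 6 members (Podxl, Cd34, S1pr1, Klf2, Klf4 and Sox17); the other settings called 0 members. The cause of these changes was not tested. Of all genes at an unadjusted p under 0.05, 80.5% were lower, against 65.4% with median-of-ratios scaling, 67.9% with voom, 55.6% with quality weights, 45.3% without both libraries high in uroplakin transcripts and 31.7% to 96.3% without single libraries. With the replicate block, 0 genes were called and the median member difference was -0.67. In that setting 4 members had an unadjusted p under 0.05, and 3.21% of all genes were lower at that p. Correlations of the deviations of libraries with the same number were 0.575, 0.784 and -0.193, and 3 of 6 libraries correlated best with their own number. These values do not establish a pairing and do not show that there is none.

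Relative to the reference genes, Icam1 turned to 0.06 with Cdh5 as the reference, 0.02 with quality weights and up to 0.27 without single libraries (lowest -0.29). Vcam1 turned to 0.12 with quality weights (-0.38 to 0.14 without single libraries), and Selp to -0.22 with a pseudocount of 0.1, -0.44 with voom and -0.21 without both libraries high in uroplakin transcripts (-0.03 to 0.44 without single libraries). Of other genes, quality weights turned Itgb1 (0.05), Itga9 (0.01), Vegfa (-0.01, as with upper-quartile scaling) and Angpt1 (0.02). Angpt1 was 0.20 without both libraries high in uroplakin transcripts, and Angpt2 was 0.01 with the replicate block. Without single libraries the ranges were -0.70 to 0.01 for Itgb1, -0.66 to 0.07 for Itga9, -0.02 to 0.15 for Vegfa, -0.58 to 0.30 for Angpt1, -0.62 to 0.16 for Angpt2 and -0.94 to 0.00 for Cd200. Depth limits Prox1, Tal1, Selp and Sele, whose lowest libraries held 1 to 7 fragments.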
